A study of Homo sapiens with 12 samples.

Results

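The genes described here are 10 subunits of the transcription factor AP-1 and immediate early genes: FOS, FOSL1, FOSL2, JUN, JUNB, JUND, EGR1, IER2, IER3 and MYC. They were taken by gene symbol from the 46427 genes of the deposited table. All 10 passed the filter on low counts that left 16283 genes for testing. RNA was sequenced from HT1080 cells, an established human fibrosarcoma line, in 12 libraries from 4 siRNA treatments. The cell line label runs upward in number from HT1080 across the samples where the design text names HT1080 alone, which was taken as the line of all 12. Cells had received siTRIP12, siOTUD5, siTRIP12 and siOTUD5 together (siTRIP12+siOTUD5), or a scrambled siRNA, with 3 libraries each. TRIP12 is a HECT-type ubiquitin ligase and OTUD5 a deubiquitylase of the OTU family, and the series title places the study in the degradation of proteins that a deubiquitylase protects. All cells of all groups were transfected, no untransfected cells were analysed here, and the labels name no stimulus, time, siRNA sequence or dose. Nothing in the labels tells separate cultures from repeat preparations, so the p-values measure only the spread between these libraries, which may be technical.

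AP-1 is a dimer of bZIP proteins, made of a JUN family member with a FOS family member or of JUN proteins alone, that binds the sequence TGACTCA and activates genes of proliferation, invasion and matrix turnover. Immediate early genes are transcribed within minutes of growth factor or stress signals without new protein synthesis, through kinases that act on factors such as SRF and on JUN itself. Their mRNAs and proteins are mostly short-lived, and several of the proteins are removed by the ubiquitin system.

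The promoters of 5 genes are shown to set those of genes lower in siTRIP12 (JUN and FOSL2) beside those of EGR1, JUNB and FOS, which followed other patterns. They are the RefSeq windows of GRCh38.p14, 250 bases before to 50 bases after the start site, read 5′ to 3′ on the gene's strand. Positions count the start site as base 0, and capitals mark the motifs found. Of the 10 genes, 7 had their promoter window searched.
EGR1 (chr5:138465229-138465528, plus strand): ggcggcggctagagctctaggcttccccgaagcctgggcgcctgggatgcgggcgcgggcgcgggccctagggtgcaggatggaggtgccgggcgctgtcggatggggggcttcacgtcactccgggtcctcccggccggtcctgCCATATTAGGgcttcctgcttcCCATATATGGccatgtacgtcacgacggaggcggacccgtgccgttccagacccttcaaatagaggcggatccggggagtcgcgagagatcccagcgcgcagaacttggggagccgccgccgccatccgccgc
JUN (chr1:58783998-58784297, minus strand): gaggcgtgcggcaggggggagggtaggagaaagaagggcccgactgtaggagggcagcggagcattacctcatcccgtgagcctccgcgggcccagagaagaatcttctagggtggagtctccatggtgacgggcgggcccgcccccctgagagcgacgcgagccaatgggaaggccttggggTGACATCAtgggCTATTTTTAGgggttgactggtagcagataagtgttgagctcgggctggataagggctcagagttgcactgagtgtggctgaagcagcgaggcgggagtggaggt
FOSL2 (chr2:28392608-28392907, plus strand): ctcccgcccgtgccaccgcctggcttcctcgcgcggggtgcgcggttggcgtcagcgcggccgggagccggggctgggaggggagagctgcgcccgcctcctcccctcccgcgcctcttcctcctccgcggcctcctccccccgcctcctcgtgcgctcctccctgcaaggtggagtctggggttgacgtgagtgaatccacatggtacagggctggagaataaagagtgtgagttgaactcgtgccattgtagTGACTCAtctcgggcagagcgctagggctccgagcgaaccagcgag
JUNB (chr19:12791236-12791535, plus strand): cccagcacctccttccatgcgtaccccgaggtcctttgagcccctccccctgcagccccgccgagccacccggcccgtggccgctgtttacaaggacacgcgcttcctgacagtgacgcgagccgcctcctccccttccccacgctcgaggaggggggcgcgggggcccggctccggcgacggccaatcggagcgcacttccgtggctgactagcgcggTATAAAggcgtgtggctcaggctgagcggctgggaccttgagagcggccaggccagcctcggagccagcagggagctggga
FOS (chr14:75278578-75278877, plus strand): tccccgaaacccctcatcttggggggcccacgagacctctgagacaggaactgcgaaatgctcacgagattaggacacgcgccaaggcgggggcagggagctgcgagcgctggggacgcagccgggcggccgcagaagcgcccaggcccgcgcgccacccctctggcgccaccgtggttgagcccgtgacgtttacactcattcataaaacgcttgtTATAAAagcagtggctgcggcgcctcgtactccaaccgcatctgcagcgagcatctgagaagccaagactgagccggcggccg

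The EGR1 window held a pair of CArG boxes, the sequence bound by SRF, at -105 to -96 and at -83 to -74. A CArG box was found in 1.29% of the 35116 promoters searched on both strands. The JUN window held TGACATCA at -67 to -60, the variant AP-1 site named for this gene, and a MEF2 box at -55 to -46. Those motifs stood in 2.61% and 0.572% of all promoters. In FOSL2 the consensus AP-1 site TGACTCA lay just inside the transcript, at 4 to 10, and 4.95% of promoters held it. FOS and JUNB had a TATAAA box at -33 to -28 and at -31 to -26, a motif of 11.5% of promoters. In JUND, whose window is not printed, the CRE sequence TGACGTCA stood at -200 to -193 (1.85% of promoters). The E-box CACGTG, present in 7.26% of promoters, was in none of the 7 windows. The searched motifs do not overlap each other in these windows, and a match is a description of letters only.

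Totals per library ranged from 37912312 to 43881471 reads assigned to genes. TRIP12 averaged 41.8 ± 3.92 CPM (normalised reads, scaled to the library total with TMM factors) in siTRIP12, 315 ± 1.76 in siOTUD5, 53.2 ± 2.70 in siTRIP12+siOTUD5 and 322 ± 39.8 in scrambled (SD, n = 3 each). OTUD5 averaged 73.8 ± 0.275, 11.1 ± 0.749, 10.9 ± 1.34 and 59.8 ± 1.13 CPM in the same 4 groups, so both targets were low where the labels place their siRNA. OTUD5 was also higher in siTRIP12 than in scrambled, by 0.30 ± 0.07 on the log2 scale (SE, adjusted p = 0.0035, edgeR's quasi-likelihood test). The part of this rise in the siTRIP12 results was not tested. Libraries also differed in how counts leaned with transcript length: across genes, Spearman's rho between the deviation from the group mean and length was -0.43 in scrambled replicate 3, against 0.33 and 0.29 in its other libraries, and -0.24 in siTRIP12 replicate 3. Of the mesenchymal markers, VIM was the highest, at 1389 to 1665 FPKM, a level per transcript length. SPARC, MMP14 and CAV1 reached at most 274, 157 and 77.8 FPKM, and CDH2 and FN1 at most 21.2 and 10.5 FPKM. LOX, TWIST1, COL1A1 and S100A4 were low, at no more than 6.85 FPKM in any library. The epithelial list summed to at most 0.137 FPKM, with KRT5, KRT14 and GRHL2 at 0. The leukocyte list was nearly all CD68 (32.7 to 57.7 FPKM), with PTPRC at no more than 0.0179 FPKM.

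Set in order of level per length, FOSL1 led with a mean of 120.5 FPKM over the 12 libraries. IER3 followed with 96.9, JUN with 51.0 and IER2 with 38.9 FPKM. JUND (28.5), JUNB (28.0), FOSL2 (23.4) and MYC (22.1 FPKM) lay close together, and their ranges over libraries overlapped. FOS and EGR1 stood far below, at 0.557 and 0.532 FPKM. They rested on 26 to 94 and on 33 to 133 reads per library, where the other 8 genes had 1563 to 10660, so their values are the least precise of the 10. Over the 12 libraries the ranges of FOSL1 and IER3 overlapped, as did those of JUN and IER2 and those of FOS and EGR1, while IER3 and JUN, IER2 and JUND, and MYC and FOS were apart. The order of the 4 groups was the same by FPKM as by CPM for all 10 genes, and 6 of the 10 were lowest in siTRIP12.

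FOSL1 (chromosome 11, 65892049 to 65900545, GRCh38.p14), which encodes FRA1, the FOS family subunit associated with invasive mesenchymal cells, had 173, 177 and 189 CPM in siTRIP12. It had 252, 259 and 243 CPM in siOTUD5, 198, 221 and 196 in siTRIP12+siOTUD5, and 229, 226 and 225 in scrambled. Every siTRIP12 library lay below every scrambled one, and siOTUD5 held the highest values of the 4 groups. FOSL1 fell by 0.33 ± 0.05 on the log2 scale in siTRIP12 against scrambled (SE, adjusted p = 0.00014, edgeR's quasi-likelihood test with Benjamini-Hochberg adjustment, as for all adjusted p below). A gene is described as called, or as having risen or fallen, where its adjusted p was under 0.05. With both siRNAs the change against scrambled was -0.15 ± 0.05 (adjusted p = 0.0489), and with siOTUD5 alone it was 0.15 ± 0.05 (adjusted p = 0.0549).

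FOSL2 (chromosome 2, 28392858 to 28417317), which encodes the related subunit FRA2, showed the same order of groups. Its values were 120.4, 128 and 121 CPM in siTRIP12, 199, 202 and 195 in siOTUD5, and 153, 155 and 159 in siTRIP12+siOTUD5, against 199, 199 and 157 in scrambled. Scrambled replicate 3 was low beside its group, at the level of the siTRIP12+siOTUD5 libraries. Counts of that library leaned to short transcripts (rho -0.43), whose part in its FOSL2 value was not tested. FOSL2 fell by 0.59 ± 0.07 in siTRIP12 against scrambled (adjusted p = 7.8e-06), and siOTUD5 gave 0.10 ± 0.07 (adjusted p = 0.325). FOS (chromosome 14, 75278828 to 75282230), the founding member of the family, had 2.09, 1.51 and 1.13 CPM in siTRIP12, 0.827, 0.675 and 0.853 in siOTUD5, 0.700, 1.29 and 1.03 in siTRIP12+siOTUD5, and 1.71, 1.80 and 1.55 in scrambled. All siOTUD5 libraries lay below all scrambled and all siTRIP12 ones, and the siTRIP12 libraries spread across the scrambled range. FOS fell by 1.10 ± 0.27 in siOTUD5 against scrambled (adjusted p = 0.0076).

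JUN (chromosome 1, 58780791 to 58784047, 1 exon), the main transactivating partner of FOS proteins, had 145, 147 and 145 CPM in siTRIP12. Values were 195, 199.8 and 188 in siOTUD5, 173, 167 and 172 in siTRIP12+siOTUD5, and 205, 194 and 204 CPM in scrambled. The siTRIP12 libraries lay below all others, those with both siRNAs in between, and siOTUD5 overlapped scrambled. JUN fell by 0.46 ± 0.05 in siTRIP12 (adjusted p = 6.6e-07) and by 0.23 ± 0.05 in siTRIP12+siOTUD5 (adjusted p = 0.00086), both against scrambled.

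JUNB (chromosome 19, 12791486 to 12793315, 1 exon), a JUN family protein that activates weakly and can counter JUN, moved the other way. It had 44.9, 50.04 and 60.9 CPM in siTRIP12, 63.7, 63.5 and 63.3 in siOTUD5, and 58.6, 68.1 and 55.9 in siTRIP12+siOTUD5, against 41.2, 40.2 and 48.7 in scrambled. Every library with siOTUD5 lay above every scrambled one. JUNB rose by 0.55 ± 0.10 in siOTUD5 (adjusted p = 0.0011) and by 0.49 ± 0.10 in siTRIP12+siOTUD5 (adjusted p = 0.0019), and the siTRIP12 value of 0.26 ± 0.10 was not called (adjusted p = 0.0651). HOOK2 overlaps JUNB in the annotation, at 2.15 to 4.44 FPKM, and whether counting used strand is not given in the sources used here. JUND (chromosome 19, 18279694 to 18281622, 1 exon), the family member usually made at a steady level, had 64.2, 64.7 and 69.6 CPM in siTRIP12 and 55.5, 57.6 and 62.2 in siOTUD5. It had 45.3, 64.2 and 43.0 in siTRIP12+siOTUD5 and 59.8, 54.2 and 65.8 in scrambled. None of its comparisons was called, and siTRIP12+siOTUD5 replicate 2 stood far above the other libraries of its group. Without it, JUND was 0.44 lower on the log2 scale in siTRIP12+siOTUD5 than in scrambled (adjusted p = 0.0011). That library, scrambled replicate 3 and siTRIP12 replicate 3 each held the highest JUNB and JUND of their group and counts leaning to short transcripts (rho -0.20, -0.43 and -0.24), whose part was not tested.

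The makeup of the AP-1 mRNA pool can be read from the summed FPKM. JUN supplied 41.7% ± 2.36 of JUN family FPKM in siTRIP12, 47.9% ± 1.27 in siOTUD5, 47.0% ± 4.29 in siTRIP12+siOTUD5 and 53.1% ± 2.01 in scrambled (SD, n = 3 each). JUNB supplied 26.3% ± 2.67, 27.8% ± 0.333, 29.6% ± 0.842 and 20.3% ± 1.17 in the same groups, and its ratio to JUN was 0.635, 0.582, 0.635 and 0.384. All 9 libraries with a targeting siRNA had a JUNB to JUN ratio of at least 0.551, and no scrambled library exceeded 0.426. The 9 are set against the same 3 scrambled libraries. Scrambled replicate 3 (0.426), siTRIP12 replicate 3 (0.749) and siTRIP12+siOTUD5 replicate 2 (0.726) held the highest ratio of their group. Their counts leaned to short transcripts, whose part in the ratio was not tested. The FOS family was taken as FOS, FOSL1 and FOSL2. It summed to 122 ± 4.49 FPKM in siTRIP12, 166 ± 4.73 in siOTUD5, 136 ± 6.20 in siTRIP12+siOTUD5 and 154 ± 5.70 in scrambled. FOSL1 made up 84.6%, 83.1%, 83.6% and 82.6% of it in the same groups, and FOS itself at most 0.589% on average.

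**Figure D1:**
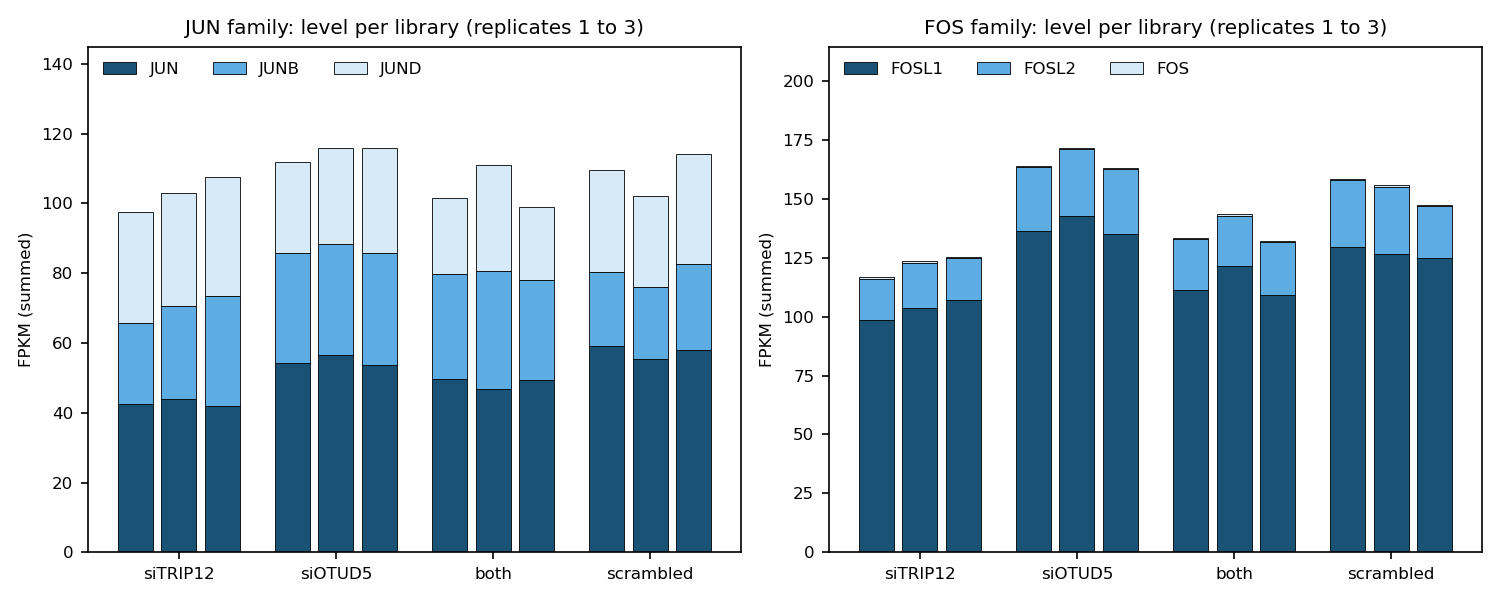
Summed level per transcript length (FPKM, y axis) of the JUN family (left) and the FOS family without FOSB (right) in each library (bars, replicates 1 to 3 from left to right within each group). JUNB forms a larger part of the JUN family bars in the 3 groups with a targeting siRNA than in scrambled, and FOSL1 forms at least 81.3% of every FOS family bar.

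EGR1 (chromosome 5, 138465479 to 138469303), a zinc finger factor and classical SRF target, had 2.96, 2.60 and 2.52 CPM in siTRIP12. Values were 1.68, 0.856 and 1.29 in siOTUD5, 1.79, 1.74 and 2.34 in siTRIP12+siOTUD5, and 1.66, 1.00 and 1.02 CPM in scrambled. The siTRIP12 libraries lay above all others, and siOTUD5 overlapped scrambled. EGR1 rose 2.19-fold in siTRIP12 against scrambled (log2 1.13 ± 0.25, adjusted p = 0.0022), the largest change of the 10 genes, at a level that remained below 1 FPKM. With both siRNAs it was 0.67 ± 0.26 above scrambled on the log2 scale (adjusted p = 0.0556).

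IER3 (chromosome 6, 30743199 to 30744547), a short early response protein that modulates apoptosis and ERK signalling, had 91.1, 98.3 and 93.8 CPM in siTRIP12, 145, 146 and 155 in siOTUD5, 124, 128 and 129 in siTRIP12+siOTUD5, and 136, 136 and 161 in scrambled. The siTRIP12 libraries formed the lowest block and those with both siRNAs lay between them and scrambled. IER3 fell by 0.61 ± 0.06 in siTRIP12 (adjusted p = 8.7e-07) and by 0.19 ± 0.06 in siTRIP12+siOTUD5 (adjusted p = 0.0280). Scrambled replicate 3 was the highest library, and without it the value with both siRNAs was -0.10 (adjusted p = 0.0941). The part of that library's lean to short transcripts (rho -0.43) in its IER3 value was not tested. IER2 (chromosome 19, 13150411 to 13154911), a nuclear early response protein, varied least, with 1.19 times between its highest and lowest group mean. It had 75.9, 77.1 and 88.0 CPM in siTRIP12, 98.9, 98.2 and 90.7 in siOTUD5, 89.1, 96.2 and 91.0 in siTRIP12+siOTUD5, and 86.4, 80.0 and 85.0 in scrambled. It rose by 0.20 ± 0.06 in siOTUD5 (adjusted p = 0.0310), a call lost without scrambled replicate 2 (adjusted p = 0.108), siOTUD5 replicate 1 (0.120) or siOTUD5 replicate 2 (0.109).

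MYC (chromosome 8, 127735434 to 127742951), a bHLH factor that drives growth and is both an early response gene and a ubiquitin substrate, was highest in scrambled. It had 74.3, 83.8 and 89.6 CPM in siTRIP12, 98.9, 91.4 and 87.2 in siOTUD5, and 88.9, 89.5 and 83.8 in siTRIP12+siOTUD5, against 108, 110.0 and 103 in scrambled. Every library with a targeting siRNA lay below every scrambled one. MYC fell by 0.37 ± 0.07 in siTRIP12 (adjusted p = 0.00036), by 0.21 ± 0.07 in siOTUD5 (adjusted p = 0.0292) and by 0.29 ± 0.07 in siTRIP12+siOTUD5 (adjusted p = 0.0029). These comparisons share the same scrambled libraries. The siOTUD5 call was lost on leaving out scrambled replicate 1 (adjusted p = 0.0867), scrambled replicate 2 (0.0818), siOTUD5 replicate 2 (0.0900) or siOTUD5 replicate 3 (0.166).

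**Figure D2:**
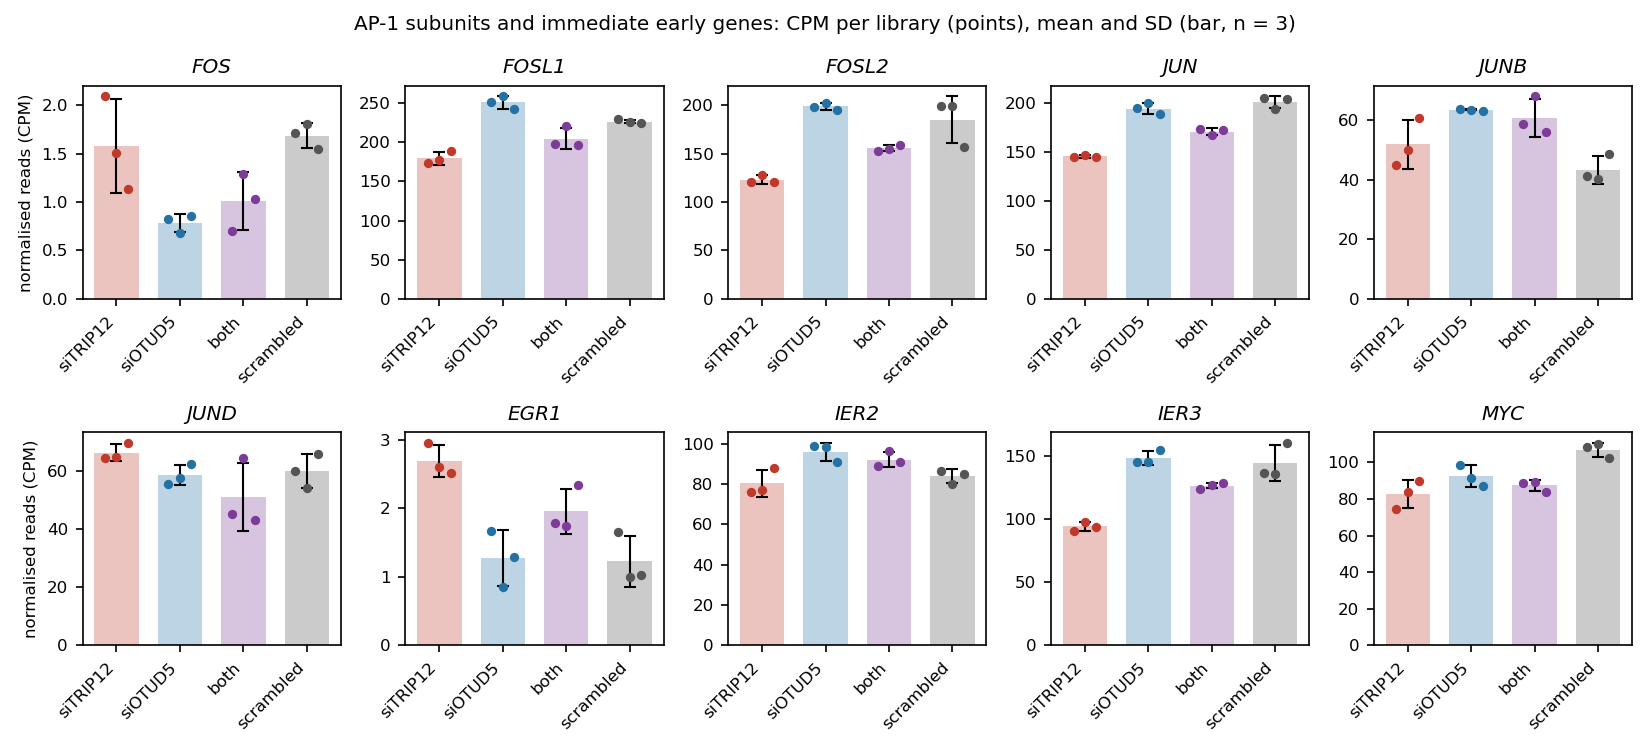
Normalised reads (CPM, y axis, a scale for each gene) of the 10 genes by group, as points for the libraries, bars for the mean and error bars for the SD (n = 3). FOSL1, FOSL2, JUN and IER3 are lowest in siTRIP12, EGR1 is highest there, JUNB is lowest in scrambled and MYC is highest in scrambled.

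Seen over the whole set, 5 of the 10 genes fell (FOSL1, FOSL2, JUN, IER3 and MYC) and 1 rose (EGR1) in siTRIP12 against scrambled. In that comparison 31.9% of all genes tested were called, 2367 higher and 2827 lower. FOS (log2 -0.09 ± 0.26), JUND (0.14 ± 0.12), IER2 (-0.06 ± 0.06) and JUNB were not called. The libraries did not overlap for 6 of the 10, where 41.4% of all genes did not overlap. The median log2 change of the 10 was -0.21, beside 0.0069 over all genes tested. In bulk RNA, fewer cells of a type and less RNA per cell cannot be told apart. The mesenchymal markers moved with these genes: their summed level was 1777 to 1813 FPKM in siTRIP12 and 2093 to 2174 in scrambled. VIM, also counted below among AP-1 targets, made up most of that sum, averaging 1440 and 1632 FPKM in these groups. Of the 10 markers, 1 was called higher and 5 lower, and their part in the result was not tested.

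In siOTUD5 against scrambled JUNB and IER2 rose and FOS and MYC fell, which is 4 of the 10 genes where 23.2% of all genes tested were called. JUN (log2 -0.05), JUND (-0.04), EGR1 (0.06), IER3 (0.04), FOSL1 and FOSL2 were not called. The median log2 change of the 10 was 0.05, beside -0.0078 over all genes, and 5 of them had libraries that did not overlap, against 39.2% of all genes. With both siRNAs, 1 gene rose (JUNB) and 6 fell (FOS, FOSL1, FOSL2, JUN, IER3 and MYC) against scrambled, where 30.9% of all genes were called. The median was -0.21, beside 0.0024 over all genes, and 8 of the 10 had libraries that did not overlap, against 42.5% of all genes. JUND (log2 -0.24, adjusted p = 0.173), IER2 (0.14, adjusted p = 0.111) and EGR1 were not called. The mesenchymal markers summed to 1812 to 1910 FPKM in siTRIP12+siOTUD5 and 2093 to 2174 in scrambled, of which VIM averaged 1449 and 1632 FPKM. Of the 10 markers, 2 were called higher and 5 lower (median log2 -0.23), and their part in the result was not tested. Several of these calls sat at the threshold. FOS was lost in 9 of 14 alternatives, FOSL1 in 10, IER3 in 6 and FOSL2 in 3, and the fit to these 2 groups alone kept only JUN, JUNB and MYC. The highest adjusted p on leaving out any 1 library was 0.183 for FOS (without siTRIP12+siOTUD5 replicate 1), 0.185 for FOSL1 (without siTRIP12+siOTUD5 replicate 3), 0.0957 for IER3 (without siTRIP12+siOTUD5 replicate 1) and 0.0809 for FOSL2 (without scrambled replicate 1).

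**Figure D3:**
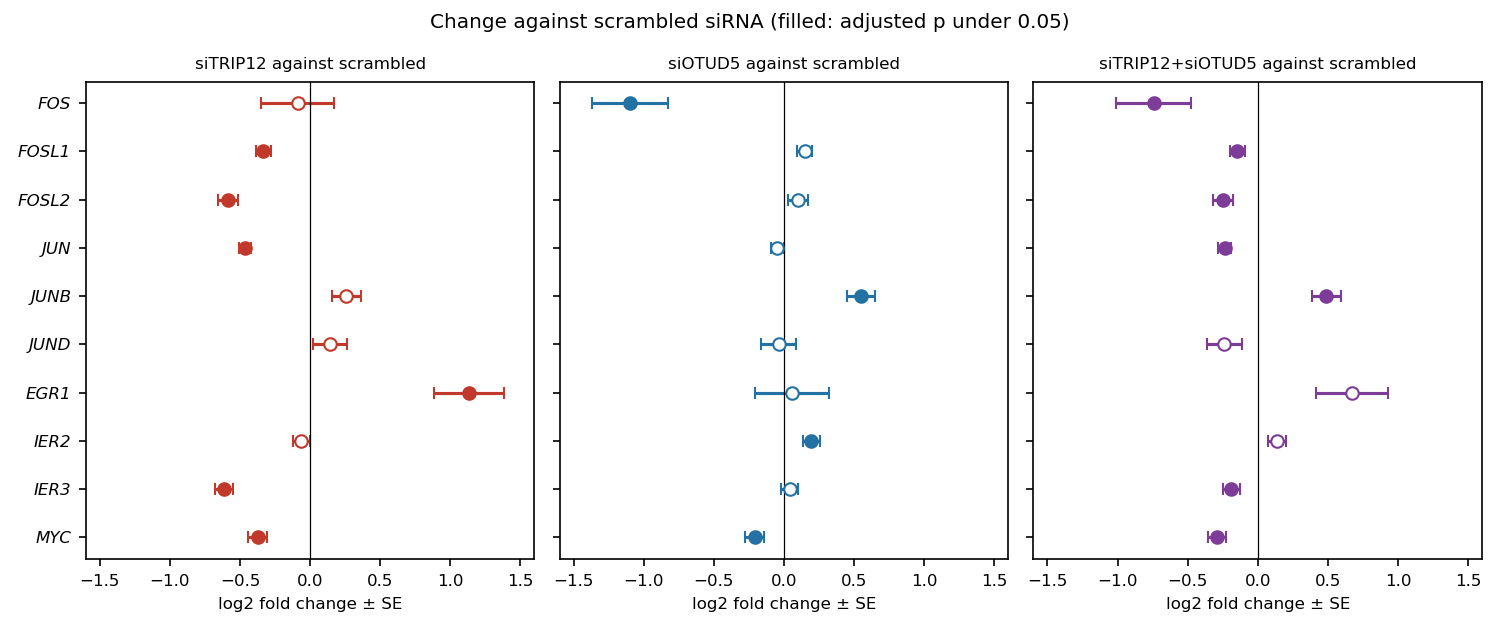
Log2 fold change (x axis) with its SE (bars) of the 10 genes in siTRIP12, siOTUD5 and siTRIP12+siOTUD5, each against the same 3 scrambled libraries. Filled points are called: 6 genes with siTRIP12, 4 with siOTUD5 and 7 with both, and most points lie left of 0 in the panels with siTRIP12.

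The libraries that carry both siRNAs can be set against each single knockdown. Against siTRIP12, siTRIP12+siOTUD5 had 5 of the 10 genes higher and none lower, where 15.7% of all genes tested were called. Over all genes, the 2557 calls of this comparison became 1495 without siTRIP12+siOTUD5 replicate 1. The 5 genes were IER3 (log2 0.43 ± 0.06, adjusted p = 0.00015), FOSL2 (0.34 ± 0.07, adjusted p = 0.0037), JUN (0.23 ± 0.05, adjusted p = 0.0022), FOSL1 (0.19 ± 0.05, adjusted p = 0.0234) and IER2 (0.20 ± 0.06, adjusted p = 0.0396). Those not called were FOS (log2 -0.65 ± 0.27), JUNB (0.23 ± 0.10), JUND (-0.38 ± 0.12), EGR1 (-0.46 ± 0.24) and MYC (0.08 ± 0.07). The siTRIP12 libraries are those that were also set against scrambled. Of the mesenchymal markers, 4 of 10 were called higher and none lower in this comparison. The median log2 change of the 10 markers was -0.01, so the list as a whole did not rise, and their part was not tested. TRIP12 itself was 0.35 ± 0.08 higher in siTRIP12+siOTUD5 than in siTRIP12 (adjusted p = 0.0079), a weaker knockdown whose part in the result was not tested. FOSL1 lost its call without siTRIP12 replicate 1, siTRIP12 replicate 2 or siTRIP12+siOTUD5 replicate 2 (adjusted p = 0.109, 0.0822 and 0.127), and IER2 lost its call in 8 of 14 alternatives, the highest adjusted p being 0.169, without siTRIP12 replicate 1.

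Against siOTUD5, siTRIP12+siOTUD5 had 4 of the 10 genes lower and none higher, where 8.41% of all genes were called. FOSL2 fell by 0.35 ± 0.07 (adjusted p = 0.0044) and FOSL1 by 0.29 ± 0.05 (adjusted p = 0.0024), both on the log2 scale. FOS (0.35), EGR1 (0.61), JUNB (-0.06), JUND (-0.20), IER2 (-0.06) and MYC (-0.08) were not called. Of the mesenchymal markers, 1 was called higher and 4 lower. JUN (log2 -0.19, adjusted p = 0.0165) and IER3 (log2 -0.23, adjusted p = 0.0275) were lost in 5 and 7 of 14 alternatives, with adjusted p of at most 0.0902 for JUN (without siOTUD5 replicate 2) and 0.121 for IER3 (without siOTUD5 replicate 3). Comparing the single knockdowns with each other, siTRIP12 was lower than siOTUD5 in 6 genes (FOSL1, FOSL2, JUN, JUNB, IER2 and IER3) and higher in 2 (FOS and EGR1), where 29.8% of all genes were called. JUND (log2 0.18) and MYC (-0.16) were not called. The largest of these differences were 1.08 ± 0.25 for EGR1 and 1.01 ± 0.27 for FOS on the log2 scale (adjusted p = 0.0034 and 0.0095), followed by -0.69 ± 0.07 for FOSL2 and -0.66 ± 0.06 for IER3. JUNB (log2 -0.29, adjusted p = 0.0403) was lost in 7 of 14 alternatives, up to an adjusted p of 0.180 without siTRIP12 replicate 1, and FOS was lost without that library alone (adjusted p = 0.0686).

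The effect of siTRIP12 with siOTUD5 and its effect without it were measured on libraries that are not shared. FOSL1, FOSL2, JUN and IER3 were called lower in both, where 982 of all 16283 genes were called in both in either direction. Of the 10 genes, 7 had the same sign, near the 65.7% of all genes. For siOTUD5 with siTRIP12 and without it, likewise on separate libraries, 7 of the 10 had the same sign, beside 61.7% of all genes. IER2 was called in both, as were 1130 of all 16283 genes in either direction. The difference between the siTRIP12 effects, the interaction, was called for 2 of the 10, where 8.16% of all genes were called. IER3 was -0.23 ± 0.06 with siOTUD5 and -0.61 ± 0.06 without it, a difference of 0.38 ± 0.09 (adjusted p = 0.0114). JUN was -0.19 ± 0.05 and -0.46 ± 0.05, a difference of 0.28 ± 0.06 (adjusted p = 0.0130), which was lost without siOTUD5 replicate 3 (adjusted p = 0.0595). TRIP12 itself had an interaction of 0.38 ± 0.11 (adjusted p = 0.0489), whose part in these values was not tested. FOSL1, at -0.29 and -0.33, differed by 0.04 ± 0.08 (adjusted p = 0.810). FOS (0.44 ± 0.38), EGR1 (-0.52 ± 0.36), JUNB (-0.32 ± 0.14), JUND (-0.34 ± 0.18) and IER2 (0.0022 ± 0.09) were not called either. FOSL2 and MYC were not called (0.23 and 0.29, adjusted p = 0.173 and 0.0651), and without scrambled replicate 3 both were (0.34 and 0.32, adjusted p = 0.00050 and 0.0233).

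**Figure D4:**
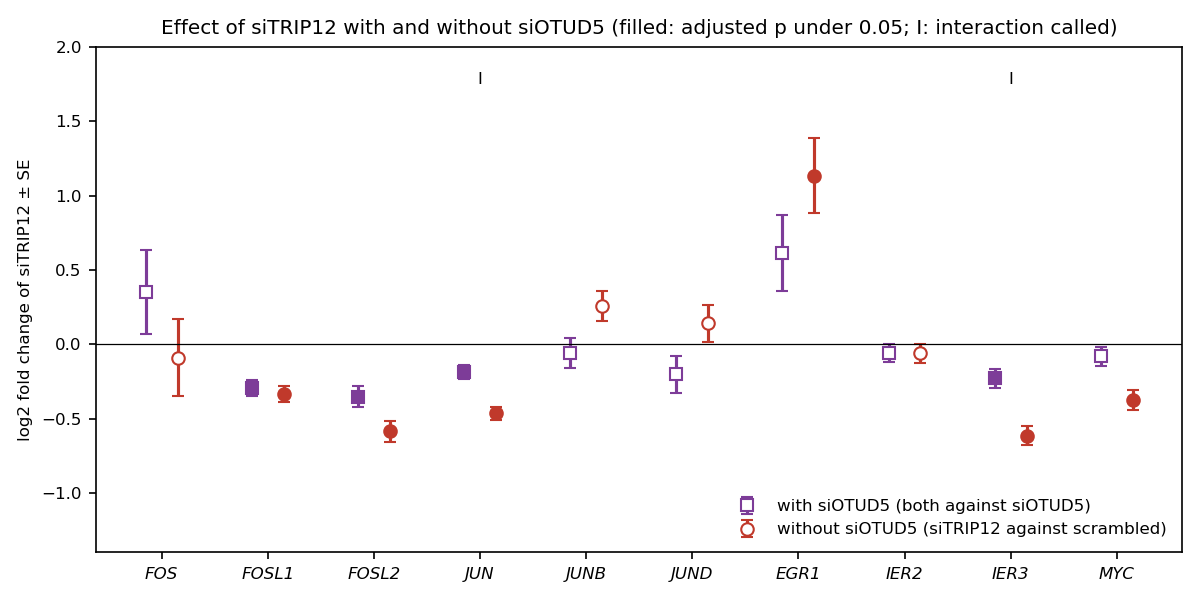
Log2 fold change of siTRIP12 (y axis, with its SE) with siOTUD5 (squares, siTRIP12+siOTUD5 against siOTUD5) and without it (circles, siTRIP12 against scrambled) for the 10 genes. Filled symbols are called, and I marks the 2 genes, JUN and IER3, whose 2 values differ in the interaction test.

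Other genes of the same circuits were counted in lists. Their counts stand beside the shares called over all genes tested, which were 31.9% in siTRIP12, 23.2% in siOTUD5 and 30.9% in siTRIP12+siOTUD5 against scrambled. The lists were chosen with earlier results of these data known, so an excess over these shares is a description and no test. The 3 comparisons use the same scrambled libraries, so a call in all 3 is not repeated evidence. Of 10 tested bZIP partners of AP-1, 5 were called higher and none lower in siTRIP12, 3 and 0 in siOTUD5, and 5 and 0 in siTRIP12+siOTUD5, each against scrambled, with a median log2 change of 0.17, 0.21 and 0.28. FOSB, the remaining FOS family gene, averaged 3.54 ± 0.232 CPM in siTRIP12, 1.59 ± 0.556 in siOTUD5, 3.21 ± 0.749 in siTRIP12+siOTUD5 and 1.79 ± 0.0674 in scrambled (SD, n = 3 each). It was high in both groups with siTRIP12, by 0.98 ± 0.22 against scrambled in siTRIP12 (adjusted p = 0.0023) and by 1.02 ± 0.22 in siTRIP12+siOTUD5 against siOTUD5 (adjusted p = 0.0079). FOSB rested on few reads, 217 in total over the scrambled libraries and 192 over the siOTUD5 ones. Like those of FOS and EGR1, its values are imprecise. ATF3, a stress-induced JUN partner, averaged 28.8 ± 0.623 CPM in siTRIP12, 24.9 ± 2.52 in siOTUD5, 29.5 ± 1.59 in siTRIP12+siOTUD5 and 19.0 ± 0.878 in scrambled, and was called higher in all 3 comparisons with scrambled (log2 0.60, 0.40 and 0.64). ATF3 had an interaction of -0.36 ± 0.11 (adjusted p = 0.0498).

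Of 27 other immediate early genes tested, 7 rose and 8 fell in siTRIP12, 17 rose and 3 fell in siOTUD5, and 14 rose and 2 fell in siTRIP12+siOTUD5, each against scrambled (median log2 -0.13, 0.28 and 0.29), where 31.9%, 23.2% and 30.9% of all genes were called. DUSP1, a phosphatase that switches off MAP kinases, averaged 18.9 ± 1.26 CPM in siTRIP12, 33.9 ± 3.86 in siOTUD5, 30.9 ± 1.85 in siTRIP12+siOTUD5 and 19.1 ± 0.653 in scrambled. It was high in both groups with siOTUD5, by 0.83 ± 0.08 in siOTUD5 against scrambled (adjusted p = 2.4e-06) and by 0.71 ± 0.08 in siTRIP12+siOTUD5 against siTRIP12 (adjusted p = 2.3e-05). RHOB, a small GTPase, averaged 90.8 ± 0.580, 178 ± 14.2, 126 ± 11.2 and 101 ± 4.77 CPM in the same 4 groups and rose by 0.81 ± 0.07 in siOTUD5 (adjusted p = 1.8e-07). MCL1, a survival factor of the BCL2 family, rose by 0.62 ± 0.05 in siOTUD5 (adjusted p = 1.4e-07), and BTG2, an antiproliferative gene, by 0.58 ± 0.06 (adjusted p = 1.1e-06). GADD45B, a stress response gene, fell by 0.56 ± 0.08 in siTRIP12 (adjusted p = 2.8e-05), and PLK2 rose there by 0.42 ± 0.06 (adjusted p = 2.4e-05).

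Textbook target genes of AP-1 were split in direction. Of 20 tested, 5 rose and 10 fell in siTRIP12 (median log2 -0.27), 7 rose and 2 fell in siOTUD5 (0.21), and 8 rose and 6 fell in siTRIP12+siOTUD5 (0.14), each against scrambled. Against siTRIP12, siTRIP12+siOTUD5 had 12 of the 20 higher and 2 lower (0.45), where 15.7% of all genes were called. Among the proteases, MMP9 averaged 3.07 ± 0.120 CPM in siTRIP12, 15.3 ± 1.64 in siOTUD5, 6.81 ± 0.373 in siTRIP12+siOTUD5 and 29.5 ± 1.80 in scrambled, and fell by 3.26 ± 0.10 in siTRIP12 (adjusted p = 4.8e-13). MMP3 averaged 46.8 ± 1.78, 12.4 ± 0.490, 16.7 ± 1.39 and 5.60 ± 1.42 CPM in the same groups, and rose by 3.06 ± 0.13 in siTRIP12 (adjusted p = 3.9e-11). The 2 metalloproteases therefore lay at opposite ends of the group order, with the siTRIP12+siOTUD5 libraries between the siTRIP12 and scrambled ones in each case. PLAU, the urokinase protease, and CCND1, the G1 cyclin D1, fell by 1.09 ± 0.06 and by 0.97 ± 0.06 in siTRIP12 (adjusted p = 1.0e-09 and 8.4e-10). IL1B, an inflammatory cytokine, rose by 1.51 ± 0.13 in siOTUD5 (adjusted p = 1.3e-06), and IL11, a cytokine of the IL-6 family, by 0.58 ± 0.07 (adjusted p = 1.2e-05).

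**Figure D5:**
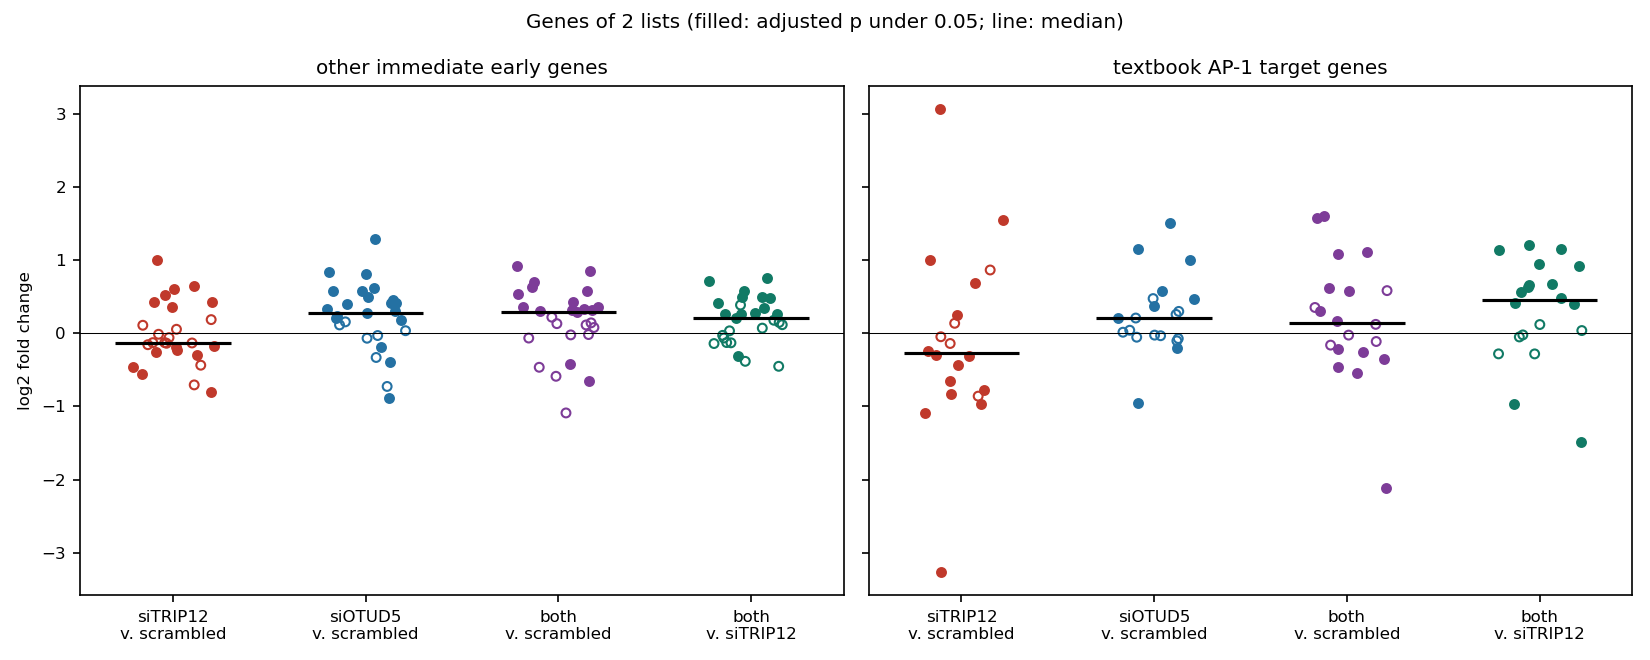
Log2 fold change (y axis) of 27 other immediate early genes (left) and 20 AP-1 target genes (right) in 4 comparisons, as points for the genes and lines for their median, with filled points called. The median of the other immediate early genes is -0.13 with siTRIP12 and 0.28 with siOTUD5 against scrambled, and that of the AP-1 targets is -0.27 and 0.21.

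Upstream of these genes, 18 kinases and factors were tested, of which 4 rose and 4 fell in siTRIP12, 3 rose and 4 fell in siOTUD5, and 5 rose and 6 fell in siTRIP12+siOTUD5, each against scrambled (median log2 -0.06, 0.0095 and 0.01). MAP2K4, a kinase that activates JNK and p38, averaged 44.7 ± 2.61 CPM in siTRIP12, 32.7 ± 0.879 in siOTUD5, 38.4 ± 1.02 in siTRIP12+siOTUD5 and 23.9 ± 1.40 in scrambled, and rose in all 3 (log2 0.91, 0.45 and 0.68). MAP2K4 had an interaction of -0.67 ± 0.09 (adjusted p = 0.00022). Conversely MAP2K1, a kinase that activates ERK, fell by 0.42 ± 0.05 in siTRIP12 (adjusted p = 8.1e-06) and by 0.31 ± 0.05 in siTRIP12+siOTUD5 (adjusted p = 0.00024). SRF, the factor that binds CArG boxes, rose by 0.41 ± 0.07 in siOTUD5 and by 0.32 ± 0.07 in siTRIP12+siOTUD5 (adjusted p = 0.00035 and 0.0019). Of 11 tested genes of the MYC network, 3 rose and none fell in siTRIP12, 4 rose and 1 fell in siOTUD5, and 3 rose and none fell in siTRIP12+siOTUD5 (median log2 0.20, 0.06 and 0.15), where 31.9%, 23.2% and 30.9% of all genes were called. The share of the network called in siTRIP12 and in siTRIP12+siOTUD5 was no higher than that. MXD4, a MAX partner that opposes MYC, averaged 20.7 ± 1.22, 12.2 ± 1.14, 12.8 ± 0.502 and 9.09 ± 0.424 CPM in siTRIP12, siOTUD5, siTRIP12+siOTUD5 and scrambled. It rose by 1.19 ± 0.09 in siTRIP12 (adjusted p = 2.2e-08) and had an interaction of -1.11 ± 0.12 (adjusted p = 2.3e-05).

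Among 10 ubiquitin enzymes known to act on AP-1 or MYC proteins, 3 rose and 1 fell in siTRIP12, 3 rose and 1 fell in siOTUD5, and 4 rose and 1 fell in siTRIP12+siOTUD5, against scrambled (median log2 0.15, 0.09 and 0.23), where 31.9%, 23.2% and 30.9% of all genes were called. The 1 that fell was SKP2, an F-box ubiquitin ligase subunit that targets MYC, in each comparison with the same scrambled libraries (log2 -0.39, -0.36 and -0.39, adjusted p = 2.0e-05, 9.5e-05 and 2.9e-05). SKP2 had an interaction of 0.36 ± 0.07 (adjusted p = 0.0056). FBXW7, the F-box subunit that targets MYC and JUN, rose in all 3 (log2 0.27, 0.26 and 0.29). Of 6 proteins that bind AU-rich elements, through which many early response mRNAs are destabilised, 1 rose and 3 fell in siTRIP12, 2 rose and none fell in siOTUD5, and 1 rose and 1 fell in siTRIP12+siOTUD5 (median log2 -0.15, 0.11 and 0.05). ZFP36 (tristetraprolin), which promotes decay of such mRNAs, rose in all 3 (log2 0.65, 0.49 and 0.58). ZFP36 had an interaction of -0.56 ± 0.15 (adjusted p = 0.0288).

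Across the 12 libraries, likeness of pattern was measured by Pearson's r of log2 CPM, a description that includes the differences between groups. JUN tracked IER3 (r = 0.94), FOSL2 (0.91) and FOSL1 (0.87), and FOSL1 tracked FOSL2 (0.91). EGR1 ran opposite to JUN (r = -0.86) and FOS opposite to JUNB (-0.80). JUND followed none of the other 9 closely, with r between -0.31 and 0.42. Outside the set, among 10234 or 10235 protein-coding genes with a mean of at least 5 CPM, the closest pattern to FOSL1 was that of PLOD3 (r = 0.99), a collagen lysyl hydroxylase. The closest to FOSL2 was LOXL2, a lysyl oxidase (0.99), to JUN LEPROTL1 (0.99), to IER3 SERBP1 (0.98) and to JUNB GSDME (0.97). EGR1 was closest to AHCYL2 (0.96), FOS to EPDR1 (0.95), MYC to POLD1 (0.94), a DNA polymerase delta subunit, and IER2 to RUSC2 (0.94). JUND was in no called comparison and was not searched.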

How the data were processed

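HT1080 libraries were sequenced from stranded poly(A) kits, per the labels' protocols. The deposited table held whole-number read counts per gene from the authors and FPKM, which the authors scaled to transcript length and library size, and TPM, which the authors deposited and which were not used here. Per the submitters' processing notes, HISAT2, StringTie and GRCh38 were named, without versions, roles or order. Counts of fragments or reads, and the use of strand, are not given in the sources used here.

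The test used edgeR 4.0.16 in R 4.3.3: filterByExpr on the 4 groups, TMM factors, and a robust quasi-likelihood fit with a mean per group over the 12 libraries (biological coefficient of variation 0.0822, with 8 residual degrees of freedom). F-tests gave 6 comparisons between groups and the interaction, (siTRIP12+siOTUD5 minus siOTUD5) minus (siTRIP12 minus scrambled). P-values were adjusted by Benjamini-Hochberg over all 16283 genes, and an adjusted p under 0.05 was called. The SE is the log2 fold change divided by the square root of F. CPM are counts scaled to the TMM-adjusted library total. FPKM, as deposited, served for levels between genes and were not tested.

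All 10 members and TRIP12 and OTUD5 are named. List genes named are among the up to 4 called genes of smallest p in each list and comparison. The 3 most similar genes per called member were sought by Pearson's r of log2 CPM (pseudocount 0.5), of which 1 is printed. JUND, the 1 member with no call, was left out of that search. The members and lists were chosen with earlier results of these data known. The test was checked on simulated counts. Promoters came from RefSeq (GRCh38.p14), motifs were searched on both strands, and coordinates are from the same release, whose annotation may differ from that of the authors.

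Alternatives were scaling by upper-quartile or DESeq2 size factors, testing by limma-voom (limma 3.58.1) or DESeq2 1.42.0, a mean of at least 50 reads or no filter, a replicate block, fits without the groups not compared, and each library left out once. Replicates of a group differed beyond counting noise in every pair (chi-square per degree of freedom 5.09 to 34.9), so none was counted as a duplicate.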

Additional observations from a re-analysis of the deposited data

Results flagged for a closer look

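For 2 of the 10 genes the effect of siTRIP12 differed between cells with and without siOTUD5, by edgeR's interaction test, which called 8.16% of all genes. IER3 was -0.23 ± 0.06 with siOTUD5 and -0.61 ± 0.06 without it on the log2 scale, a difference of 0.38 ± 0.09 (adjusted p = 0.0114). For JUN the effects were -0.19 ± 0.05 and -0.46 ± 0.05, a difference of 0.28 ± 0.06 (adjusted p = 0.0130), and the call was lost without siOTUD5 replicate 3 (adjusted p = 0.0595). TRIP12 was itself 0.35 higher in siTRIP12+siOTUD5 than in siTRIP12 on the log2 scale, and its part in these differences was not tested.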

How the results depend on the processing

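Over all 10 genes and 7 comparisons, 511 of the values under other settings kept direction and side of the threshold, 14 gained a call, 20 lost one and 5 changed sign; on leaving out 1 library these were 407, 12, 47 and 14. In siTRIP12 against scrambled the calls of FOSL1, FOSL2, JUN, EGR1, IER3 and MYC held in all 14 alternatives run, with an adjusted p of at most 0.0124 (EGR1), and the IER3 interaction held in all 19, up to 0.0378. The count of called genes in siTRIP12+siOTUD5 against scrambled was 7 and became 3 when only these groups were fitted; the cause was not tested, though that fit holds fewer libraries. Leaving out 1 library gave 6 to 7 called genes in siTRIP12 against scrambled, 2 to 4 in siOTUD5 against scrambled, 4 to 7 in siTRIP12+siOTUD5 against scrambled, 3 to 6 in siTRIP12+siOTUD5 against siTRIP12, 2 to 3 in siTRIP12+siOTUD5 against siOTUD5, 6 to 9 in siTRIP12 against siOTUD5, and 1 to 4 in the interaction. Without scrambled replicate 3, the library that stood apart, the counts were 7, 4 and 6 for the comparisons with scrambled and 4 for the interaction. Over all genes, siTRIP12+siOTUD5 against siTRIP12 had 2557 calls and 1495 at the fewest on leaving out 1 library; siTRIP12+siOTUD5 against siOTUD5 had 1370 calls, 2936 when only these groups were fitted and 692 at the fewest on leaving out 1 library; the interaction had 1329, and 734 at the fewest.

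Changes of sign touched uncalled values only, and on leaving out 1 library these log2 values ranged as follows. FOS in siTRIP12 against scrambled lay between -0.34 and 0.096. In siOTUD5 against scrambled, EGR1 lay between -0.19 and 0.34, IER3 between -0.00013 and 0.13, FOSL2 between -0.0037 and 0.17, and JUND between -0.11 and 0.035. In the interaction, FOSL1 lay between -0.015 and 0.079 and IER2 between -0.048 and 0.073. The IER2 interaction, 0.0022, also became -0.0048 with DESeq2 size factors, -0.024 with upper-quartile factors, -0.012 with no filter, -0.0091 with a mean of at least 50 reads and -0.0047 with DESeq2.

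Deviations from the group means showed no pairing by replicate number: they correlated at -0.087 to 0.052 between libraries of the same number (18 pairs) and at -0.115 to 0.136 between other numbers (36 pairs). With 3 libraries per group, these values cannot show whether libraries were prepared together, which the labels do not say. With the replicate block, 6 of the 10 genes were called in siTRIP12+siOTUD5 against scrambled, where FOS (adjusted p = 0.0581) and FOSL1 (0.0587) were lost and EGR1 (0.0372) was gained, and 4 in siTRIP12+siOTUD5 against siTRIP12, where IER2 was lost (0.0559); the other counts were as without it. Low counts limit FOS and EGR1, which had 26 and 33 reads in their lowest library.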
